A study of Bos grunniens and Bos grunniens x Bos taurus with 2 samples.

Results

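The claudin, tight junction and connexin genes of yak and cattle-yak testis were described cell class by cell class. Members were all features whose symbol begins with CLDN and a digit, all TJP genes, all connexin genes (GJA to GJE), and *OCLN*, *CGN*, *CGNL1*, *F11R*, *JAM2*, *JAM3*, *MARVELD2* and *MARVELD3*. The rule found 41 of 26961 features, which were 18 claudins, 17 connexins, 2 zonula occludens genes (*TJP1* and *TJP3*), 2 junctional adhesion molecules (*JAM2* and *JAM3*), and *CGNL1* and *MARVELD3*. *OCLN*, *CGN*, *F11R*, *MARVELD2*, *CLDN3* and *CLDN11* matched no feature by symbol and are not analysed here. The series holds 1 library of droplet-captured cells from the testis of a sexually mature yak and 1 from the testis of a sexually mature cattle-yak, the cross of yak and cattle, with no treatment given for either. The labels give the cell material as germ cells, but both libraries came from dissociated frozen testis tissue and hold mostly somatic cells. With 1 library per group, every difference between yak and cattle-yak below is a difference between 2 libraries with no replicate check, and all intervals are 95% intervals that cover counting error only.

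Claudins are four-pass membrane proteins that seal the space between neighbouring cells or form ion pores in that seal, and zonula occludens proteins such as TJP1 anchor them to actin. Junctional adhesion molecules are single-pass immunoglobulin proteins of the same contacts, and cingulin-like 1 (CGNL1) binds the cytoplasmic face. Connexins assemble into gap junction channels that let ions and small molecules pass from cell to cell. In the testis, tight junctions between Sertoli cells (SCs) form the blood-testis barrier, CLDN11 and the connexin GJA1 being known components, while vascular endothelial cells (ECs) and muscle cells carry junctions and connexins of their own.

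After cells with a mitochondrial share of 30% or more were left out, 11114 yak and 7620 cattle-yak cells remained, with medians of 2672.5 and 3160.5 unique molecular identifiers (UMIs) per cell. Classes were named from clusters built without the members, and a class called X-like carried at least 3 of the fixed markers of that type. Levels of some of the naming markers are given next. High levels of these in their own classes follow in part from the naming rule. *AARD*, a Sertoli gene, reached 1239 and 827 CPM (the UMIs of a gene as a share of all UMIs of its class, in the usual counts-per-million scale) in the yak and cattle-yak SC-like cells, *KCNJ8* 142 and 71.2 CPM in pericyte-like cells, *PROX1* 226 and 131 CPM in lymphatic EC-like cells, and *MYH11* 8446 and 6743 CPM in the muscle or myoid (MC-like) cells. The other Sertoli genes were divided between the SC-like and the *WFDC2*-rich cells. *INHA* was at 816 and 1001 CPM in SC-like against 297 and 8.99 CPM in *WFDC2*-rich cells. *FSHR* had 1 UMI in the yak SC-like cells and 0 in the cattle-yak ones, *SOX9* was at 335 and 451 CPM in SC-like and 301 and 476 CPM in *WFDC2*-rich cells, *WT1* at 58.3 and 99.7 against 224 and 216 CPM, and *TF* at 14.6 and 144 against 1986 and 1150 CPM. *WFDC2* itself, by which the study names SCs together with *SOX9*, had 0 and 3 UMIs in the SC-like cells, which also held 627 and 218 CPM of the muscle gene *MYH11*. The low *WFDC2* count was set in part by the naming rule. Any cluster with at least 1000 CPM of *WFDC2* was called *WFDC2*-rich, whatever its Sertoli genes. SC-like cells were few, 35 in the yak and 103 in the cattle-yak library, as were cells rich in *WFDC2*, 77 and 42, which also carried *PAX8*, *TF* and *SOX9* and were left with that gene's name. A deep group of 579 yak and 483 cattle-yak cells held endothelial and mural genes together and is called EC and mural mixed. Spermatid-like (SPT-like) cells were named in the yak library only. A total of 24 barcodes occurred in both libraries.

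Expression of the members was uneven. No UMI of 7 members was found in either library, namely *CLDN6*, *CLDN8*, *CLDN16*, *CLDN17*, *CLDN23*, *CLDN25* and *GJE1*, and 25 members, these 7 included, had at most 25 UMIs in the kept cells of each library. In the kept cells, 14 members reached 100 UMIs in the yak library and 13 in the cattle-yak library, and *GJA4*, *TJP1* and *JAM2* had the most UMIs in both. By RefSeq gene order, in which all 41 symbols were found, *GJA4* lies within 3 genes of *GJB5*. *GJA4* had 15755 yak and 10147 cattle-yak UMIs over all barcodes, while *GJB5* had 6 and 15. *CLDN1* likewise lies within 3 genes of *CLDN16*, a claudin of the kidney, and had 530 and 567 UMIs against 0 and 0. Other members with few UMIs were, in yak and cattle-yak totals over all barcodes, *GJA9* with 21 and 4, *CLDN4* with 17 and 15, *CLDN7* with 10 and 5, *GJA10* with 9 and 5, *GJB1* with 5 and 4, *CLDN18* with 4 and 1, *GJB7* with 4 and 1, *CLDN9* with 4 and 0, *GJA3* with 3 and 0, *GJB2* with 3 and 4, *CLDN14* with 1 and 3, *CLDN2* with 1 and 1, *CLDN19* with 1 and 6, and *GJC3* with 1 and 16.

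**Figure D1:**
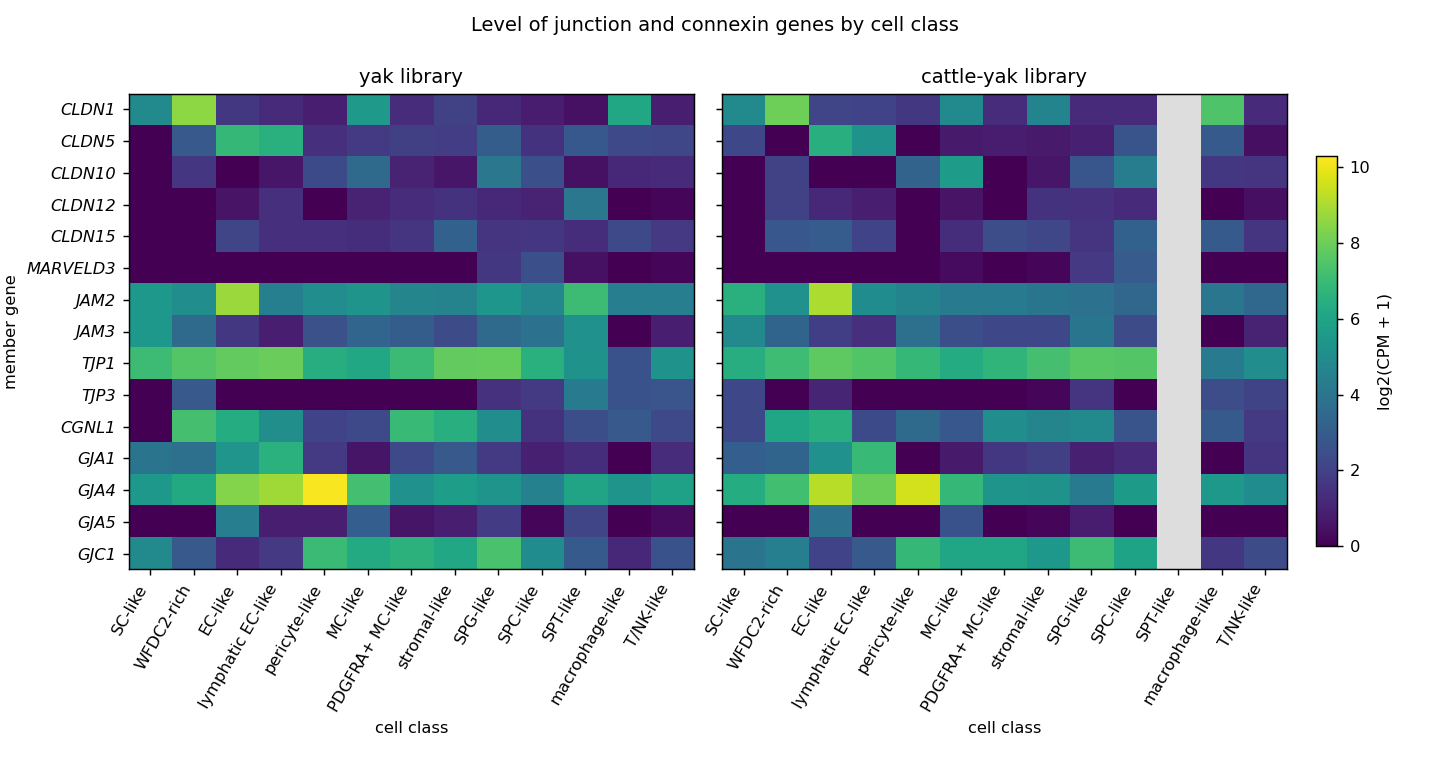
Colour gives the level, as log2(CPM + 1), of the described members (rows) in each cell class (columns) of the yak (left) and cattle-yak (right) library, and grey marks a class with no cells. *GJA4* is brightest in pericyte-like cells, *JAM2* in EC-like cells, *GJA1* in lymphatic EC-like cells and *CLDN1* in *WFDC2*-rich cells of both libraries.

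Several of the well-measured members had 1 clear peak class. Over 13 ranked classes (the mixed group, B cell-like and unnamed cells left out), the level in the leading class was at least 2-fold above the next one, with at least 10 UMIs there, for 7 of 14 members in the yak library, where 29.6% of all genes tested passed, and for 5 of 12 in the cattle-yak library, where 23.5% did. The median log2 ratio of the leading class to the next was 1.05 for the yak members against 0.59 for all genes, and 0.74 against 0.48 in the cattle-yak library. Of 12 members tested in both libraries, 8 had the same leading class, a count that has no share over all genes beside it. No smallest UMI count was set there, and *JAM3* was among the 8 with only 3 and 8 UMIs in SC-like cells. The other 4 were *CGNL1*, *CLDN10*, *CLDN15* and *TJP1*.

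Among the 13 ranked classes, connexin 37, encoded by *GJA4* and known from arterial endothelium, led in pericyte-like cells, the mural cells of capillaries. The level there was 1191 CPM (1131 to 1253) in the yak and 770.2 CPM (692 to 854) in the cattle-yak library, against 147 CPM (135 to 160) and 116 CPM (106 to 127) in MC-like cells, the other contractile class. The log2 ratio of pericyte-like to MC-like cells was 3.02 (2.88 to 3.16) and 2.73 (2.53 to 2.93). The next ranked class was lymphatic EC-like cells in the yak library, at 455 CPM (433 to 478), and EC-like cells in the cattle-yak library, at 585 CPM (563 to 607). The lead over ranked classes was thus past 2-fold in the yak library only. The EC and mural mixed group was not ranked. Without it among the other cells, the log2 ratio of pericyte-like to other cells rose from 2.29 to 3.20 and from 1.64 to 2.38. Within the EC-like class, the cluster led by *BMX* was at 1793 CPM in the cattle-yak library, above pericyte-like cells. In the yak library it was at 926 CPM, below them. With every cell thinned down to 1000 UMIs, 58.1% (51.3 to 64.7) of 222 yak pericyte-like cells and 51.0% (41.0 to 60.9) of 104 cattle-yak ones held a *GJA4* UMI, 1 and 3 shallower cells being left out. T/NK-like lymphocytes, which should lack the gene, held one in 3.73% and 2.99% of 3508 and 1138 cells, 188 and 42 shallower cells being left out. Unthinned shares were 92.8% and 86.0% in pericyte-like cells against 7.39% and 7.03% in T/NK-like cells, at median depths of 5269 and 4288 against 1948 and 2333 UMIs. Thus *GJA4* was found in most pericyte-like cells and in few lymphocytes of both libraries.

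Within EC-like cells, 1 cluster in each library was led by the gene *BMX*, a kinase gene of arterial endothelium, and *GJA4* was concentrated there. The *BMX* cluster held 926 CPM (881 to 974) of *GJA4* in 269 yak cells and 1793 CPM (1719 to 1869) in 194 cattle-yak cells, while the other EC-like cells held 124 CPM (114 to 135) and 150.0 CPM (137 to 164). *GJA5*, the artery connexin 40, reached 69.4 CPM (57.4 to 83.2) in the yak *BMX* cluster and 48.5 CPM (37.0 to 62.4) in the cattle-yak one, and only 2.76 and 1.16 CPM in the other EC-like cells. The log2 ratio of the *BMX* cluster to the other EC-like cells was 4.65 (3.82 to 5.60) and 5.38 (3.95 to 7.30) for *GJA5*, and 2.90 (2.76 to 3.04) and 3.58 (3.44 to 3.72) for *GJA4*. *GJA1*, connexin 43, went the other way, with 17.2 and 13.7 CPM in the *BMX* clusters against 48.8 and 43.6 CPM in the rest, a log2 ratio of -1.50 (-2.11 to -0.94) and -1.67 (-2.48 to -0.94). Hence *GJA4*, *GJA5* and *GJA1* each differed between the *BMX* cluster and the other EC-like cells in the same direction in both libraries.

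*CLDN5*, the claudin of blood vessel endothelium, was an endothelial gene throughout. Its level in EC-like cells was 115 CPM (107 to 124) in the yak and 86.2 CPM (78.0 to 95.01) in the cattle-yak library, and in pericyte-like cells 2 and 0 UMIs were found. Lymphatic EC-like cells, the next ranked class, held 91.7 and 36.8 CPM. The lead of EC-like cells over them was past 2-fold in the cattle-yak library only. In the *BMX* clusters *CLDN5* reached 202 CPM (181 to 224) and 152 CPM (131 to 175), against 84.5 and 62.5 CPM in the other EC-like cells, so that the log2 ratio was 1.26 (1.04 to 1.47) and 1.28 (0.99 to 1.57). After thinning, 10.8% (8.94 to 13.0) of yak and 5.28% (3.80 to 7.13) of cattle-yak EC-like cells held a *CLDN5* UMI, and 0.200% and 0.0879% of T/NK-like cells did. Unthinned shares of EC-like cells were 42.4% and 29.6%, at median depths of 5059 and 4644 UMIs.

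*JAM2*, an endothelial adhesion molecule, was at 434 CPM (418 to 450) and 519 CPM (498 to 540) in EC-like cells, and at 21.1 CPM (16.6 to 26.4) and 31.2 CPM (22.2 to 42.6) in lymphatic EC-like cells. The log2 ratio of EC-like to lymphatic EC-like cells was 4.36 (4.03 to 4.71) and 4.06 (3.60 to 4.55). In contrast to *GJA4*, *JAM2* differed little between the *BMX* cluster and the other EC-like cells, with log2 ratios of 0.13 (0.01 to 0.25) and -0.25 (-0.39 to -0.12).

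Lymphatic EC-like cells were highest in *GJA1*, at 93.6 CPM (83.8 to 104) in the yak and 125 CPM (107 to 147) in the cattle-yak library, against 40.5 CPM (35.7 to 45.7) and 35.7 CPM (30.5 to 41.5) in EC-like cells. The log2 ratio of EC-like to lymphatic EC-like cells was -1.21 (-1.45 to -0.97) and -1.81 (-2.14 to -1.49). Lymphatic EC-like and EC-like cells thus differed in *JAM2* and *GJA1* in opposite directions in both libraries. For *GJA4* the direction was not the same in the 2 libraries. Its log2 ratio of EC-like to lymphatic EC-like cells was -0.44 (-0.53 to -0.35) in the yak and 1.22 (1.05 to 1.39) in the cattle-yak library.

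**Figure D2:**
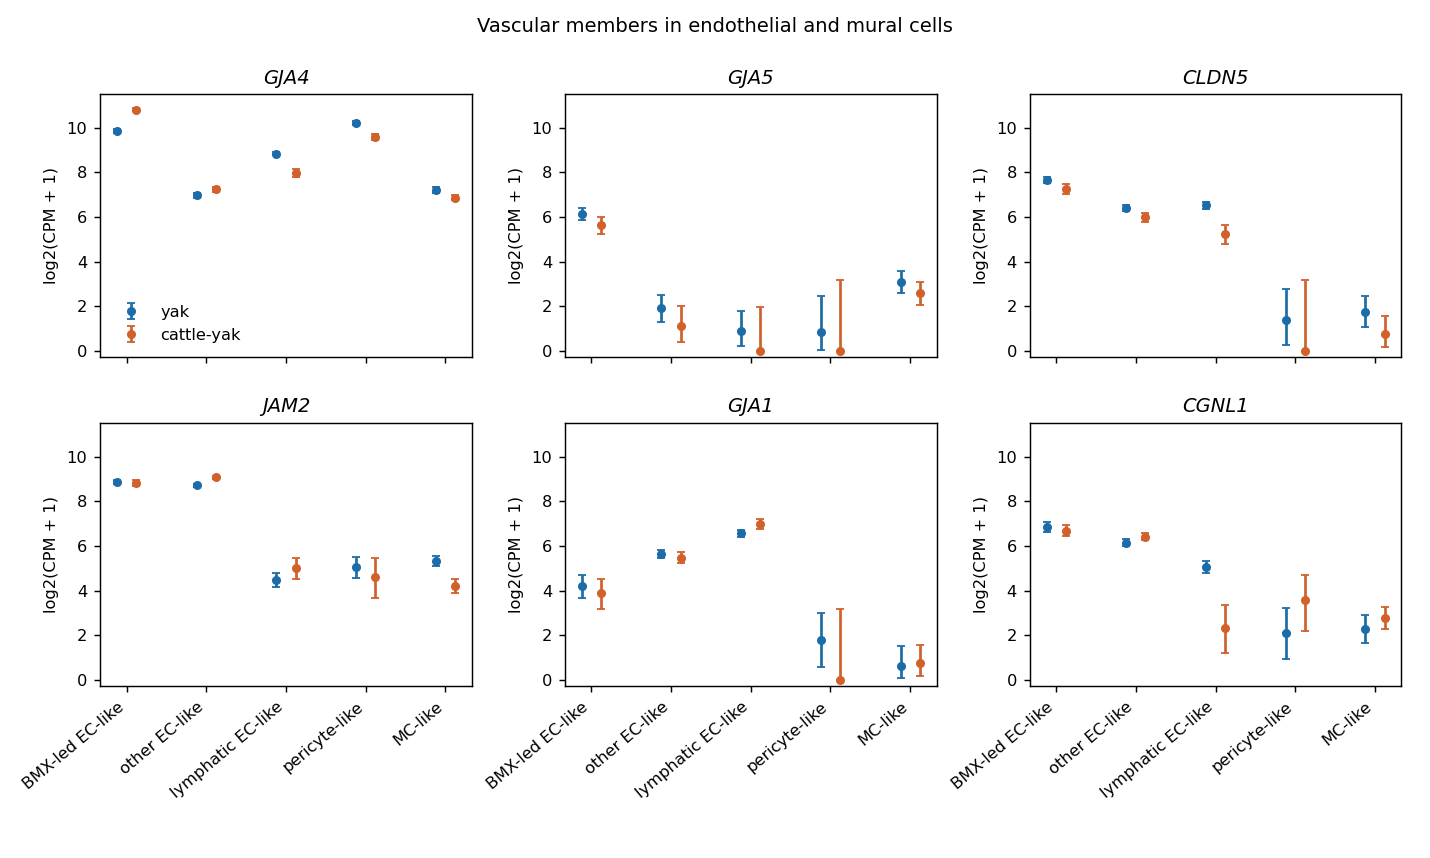
Points give the level, as log2(CPM + 1), of 6 members in 5 groups of vascular cells, with bars for 95% Poisson intervals, in the yak (blue) and cattle-yak (orange) library. *GJA4* is high in the *BMX*-led and pericyte-like groups, *GJA5* stands out in the *BMX*-led group, *JAM2* is high in both blood EC-like groups and *GJA1* is highest in lymphatic EC-like cells.

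Over the members with at least 100 summed counts, 5 of 14 were at least 2-fold higher in EC-like cells than in the other yak cells (*GJA5*, *CLDN5*, *JAM2*, *GJA1* and *CGNL1*), where 6.68% of all genes passed. In the cattle-yak library 7 of 13 were (those 5, *GJA4* and *CLDN15*), where 7.59% of all genes passed. The median log2 ratio of the members was 0.36 and 1.01, against -0.44 and -0.16 over all genes. *GJC1* was at only 1.41 CPM (0.64 to 2.67) and 3.21 CPM (1.80 to 5.29) in EC-like cells. *CLDN15*, a claudin of the gut that lets sodium pass, had 164 and 145 UMIs over all barcodes and its highest EC-like level in the *BMX* clusters, at 6.53 CPM (3.26 to 11.7) and 18.6 CPM (11.8 to 27.9). No *CLDN10* UMI was found in EC-like cells, where the floor of 3 counts is 0.469 and 0.641 CPM. Of the list of 51 other junction genes, 13 of 39 tested passed in the yak EC-like cells and 7 of 37 in the cattle-yak ones. The pair with the largest ratios was *CDH5*, the endothelial cadherin, at 434 and 276 CPM against 90.8 and 55.4 CPM in the other cells, and *CLMP*, an adhesion molecule of the CAR family, at 16.1 and 21.4 CPM against 2.76 and 3.78 CPM. However, *CDH5* and *ESAM* stand both on this list and on the marker list that named EC-like clusters. Unlike the members, the other junction genes were not left out of the clustering. The *CDH5* ratio and these counts were therefore set in part by how the class was made.

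Among contractile cells, *GJC1*, connexin 45, was found in every class. It was at 128 CPM (109 to 149) and 114 CPM (85.7 to 150) in pericyte-like cells, at 78.5 CPM (69.9 to 87.9) and 65.2 CPM (57.9 to 73.1) in MC-like cells, and at 96.7 CPM (83.7 to 111) and 66.5 CPM (53.5 to 81.8) in *PDGFRA*-positive MC-like cells. T/NK-like cells held 5.05 and 4.31 CPM of *GJC1*. It was not particular to contractile cells, since stromal-like cells held 69.8 and 44.4 CPM. *CLDN1* and *CGNL1* differed between these classes. *CLDN1*, a claudin of epithelia, was at 45.1 CPM (38.6 to 52.3) and 28.9 CPM (24.1 to 34.3) in MC-like cells, but only 1 UMI was found in pericyte-like cells of each library, and 3 and 2 UMIs in the *PDGFRA*-positive cells. Between the 2 MC-like classes *CGNL1* had the reverse pattern. It was at 123 CPM (108 to 139) and 31.8 CPM (23.0 to 42.8) in *PDGFRA*-positive MC-like cells. In MC-like cells it was at 3.89 CPM (2.18 to 6.41) and 5.86 CPM (3.83 to 8.59). The log2 ratio of MC-like to *PDGFRA*-positive cells was -4.98 (-5.84 to -4.23) and -2.44 (-3.20 to -1.70). In pericyte-like cells *CGNL1* was low as well, with 4 and 5 UMIs.

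*CLDN10*, a claudin that forms ion pores, was found in MC-like and germ cells. In the yak library it was highest in SPG-like cells, at 15.8 CPM (12.7 to 19.5) on 88 UMIs, and in the cattle-yak library SPG-like cells held 5.84 CPM (4.02 to 8.21) and SPC-like cells 19.1 CPM (10.4 to 32.0). In MC-like cells it was at 10.9 CPM (7.84 to 14.7) in 644 yak cells and 49.2 CPM (42.9 to 56.1) in 839 cattle-yak cells, while no UMI was found in cattle-yak *PDGFRA*-positive MC-like cells and 2 in the yak ones. The 2 MC-like clusters of the cattle-yak library differed, with 68.0 CPM (58.4 to 78.8) in the one led by *TRPC6* and 22.4 CPM (16.1 to 30.4) in the one led by *FHL5*. *CLDN1* was distributed in the opposite way, with 13.1 CPM (9.05 to 18.3) and 51.3 CPM (41.5 to 62.8). In MC-like cells, 2 of 14 yak members were at least 2-fold above the other cells (*CLDN1* and *CLDN10*), where 5.11% of all genes passed, and the same 2 of 13 cattle-yak members, where 5.18% passed. With a mitochondrial limit of 20% the yak *CLDN10* log2 ratio fell from 1.61 to 0.91, below 2-fold, and the yak count ran from 1 to 4 over the alternatives. That range has no share over all genes beside it. The median log2 ratio of the members was -0.99 and -1.01, against -0.77 and -0.54 over all genes. Of the other junction genes 1 of 39 and 1 of 37 passed, and that gene was *VCL*, the actin-linking vinculin, at 283 and 240.0 CPM against 75.8 and 52.6 CPM. The gene with the next largest ratio was *PATJ* in the yak (14.3 against 7.01 CPM) and *MAGI1* in the cattle-yak library (51.4 against 30.0 CPM), both scaffold genes of tight junctions.

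Among the ranked classes, *CLDN1* had its highest level in *WFDC2*-rich cells. It was at 378 CPM (324 to 438) in the yak and 258 CPM (206 to 318) in the cattle-yak library, against 29.1 CPM (3.53 to 105) and 29.5 CPM (12.8 to 58.2) in SC-like cells. The lead over macrophage-like cells, the next class, at 70.9 and 173 CPM, was past 2-fold in the yak library only. In the cattle-yak library the intervals of *WFDC2*-rich and macrophage-like cells overlapped. The log2 ratio of *WFDC2*-rich to SC-like cells was 3.70 (1.82 to 6.75) and 3.12 (2.08 to 4.38). A few cells carried most of these UMIs: *CLDN1* was found in 21 of 77 and 19 of 42 cells, 1 yak cell held 61 of the 177 UMIs and 1 cattle-yak cell 24 of the 86. After thinning, 8.33% (2.76 to 18.4) of 60 yak and 13.9% (4.67 to 29.5) of 36 cattle-yak *WFDC2*-rich cells held a UMI, 17 and 6 shallower cells being left out, against 0.0855% and 0.0879% of T/NK-like cells. The shares of macrophage-like cells were no lower than those of *WFDC2*-rich cells, at 8.95% and 21.4%. The following shares and depths are those of *WFDC2*-rich cells. Unthinned shares were 27.3% and 45.2%, at median depths of 2425 and 5396 UMIs.

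*CGNL1* was at 154 CPM (120 to 194) and 65.9 CPM (41.3 to 99.8) in *WFDC2*-rich cells, while 0 and 1 UMIs were found in SC-like cells. For the 0 of the yak, the floor of 3 counts is 43.7 CPM. *CGNL1* was not particular to *WFDC2*-rich cells. EC-like cells held 81.2 and 89.2 CPM, and they led in the cattle-yak library. In the yak library *WFDC2*-rich cells led *PDGFRA*-positive MC-like cells, at 123 CPM, by less than 2-fold. The 5 cells with the most UMIs held 59.7% and 77.3% of the *CGNL1* UMIs in *WFDC2*-rich cells, and with every cell weighted equally the yak log2 ratio to the other cells fell from 2.07 to 0.72, below 2-fold. *GJA4* in cattle-yak *WFDC2*-rich cells rested on 1 cell, which held 33 of the 48 UMIs. Of the members tested, 3 of 14 were at least 2-fold above the other yak cells (*CLDN1*, *CGNL1* and *TJP3*, the last on 3 UMIs), where 8.64% of all genes passed, and 1 of 13 in the cattle-yak library (*CLDN1*), where 9.20% passed. Their median log2 ratio was -0.93 and -0.61, against -0.36 and -0.27 over all genes. Of the other junction genes 7 of 39 and 9 of 37 passed. *CXADR*, a virus receptor of epithelial junctions, was at 42.7 and 56.9 CPM against 6.46 and 3.77 CPM, *CDH2* (N-cadherin) at 89.7 against 5.80 CPM in the yak library, and *LSR*, a gene of tricellular junctions, at 74.9 against 10.2 CPM in the cattle-yak library.

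In SC-like cells no member was measured on more than 25 UMIs. *JAM2* had 3 and 25 UMIs, *TJP1* 9 and 23, *GJA4* 3 and 22, and *JAM3* 3 and 8. *GJA1*, a gap junction gene known from SCs, had 1 and 2 UMIs, or 14.6 CPM (0.37 to 81.2) and 7.39 CPM (0.89 to 26.7), whose intervals include the 17.0 and 14.2 CPM of the other cells. *JAM3* and *CLDN1* made up the 2 of 14 yak members and the 2 of 13 cattle-yak members at least 2-fold above the other cells, where 12.6% and 9.70% of all genes passed. *CLDN1* rested on 2 and 8 UMIs there, and its intervals of 3.53 to 105 and 12.8 to 58.2 CPM include the 8.49 and 14.2 CPM of the other cells. *JAM3*, which binds JAM2 between neighbouring cells, was at 43.7 CPM (9.02 to 128) and 29.5 CPM (12.8 to 58.2), against 7.29 and 5.94 CPM in the other cells. The median log2 ratio of the members was -1.79 and -1.63, against -1.49 and -0.52 over all genes. The yak median includes members with 0 SC-like UMIs, such as *CLDN5* and *CLDN15*, whose ratios rest on the added 1 CPM. In these cells the floor of 3 counts for 0 UMIs is 43.7 CPM, so the yak median is no measure of lower levels. Of the other junction genes 3 of 39 and 4 of 37 passed. The genes with at least 10 UMIs and the largest ratios were *CDC42* (189 against 133 CPM) and *CTNNA1* (189 against 203 CPM) in the yak library, and *LSR* (51.7 against 10.5 CPM) and *YBX3* (162 against 130.1 CPM) in the cattle-yak library.

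Macrophage-like cells held more *CLDN1* than MC-like cells did. It was at 70.9 CPM (53.5 to 92.0) in 212 yak cells and 173 CPM (137 to 216) in 102 cattle-yak cells, in 41 and 47 of them. After thinning, 8.95% (5.30 to 13.9) and 21.4% (13.8 to 30.9) of these cells held a UMI. In contrast, *TJP1* was at 5.06 CPM (1.38 to 13.0) and 17.5 CPM (7.57 to 34.6) in macrophage-like cells, where T/NK-like cells held 37.6 CPM (33.6 to 42.1) and 32.5 CPM (26.4 to 39.6), so that the intervals overlapped in the cattle-yak library only.

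**Figure D3:**
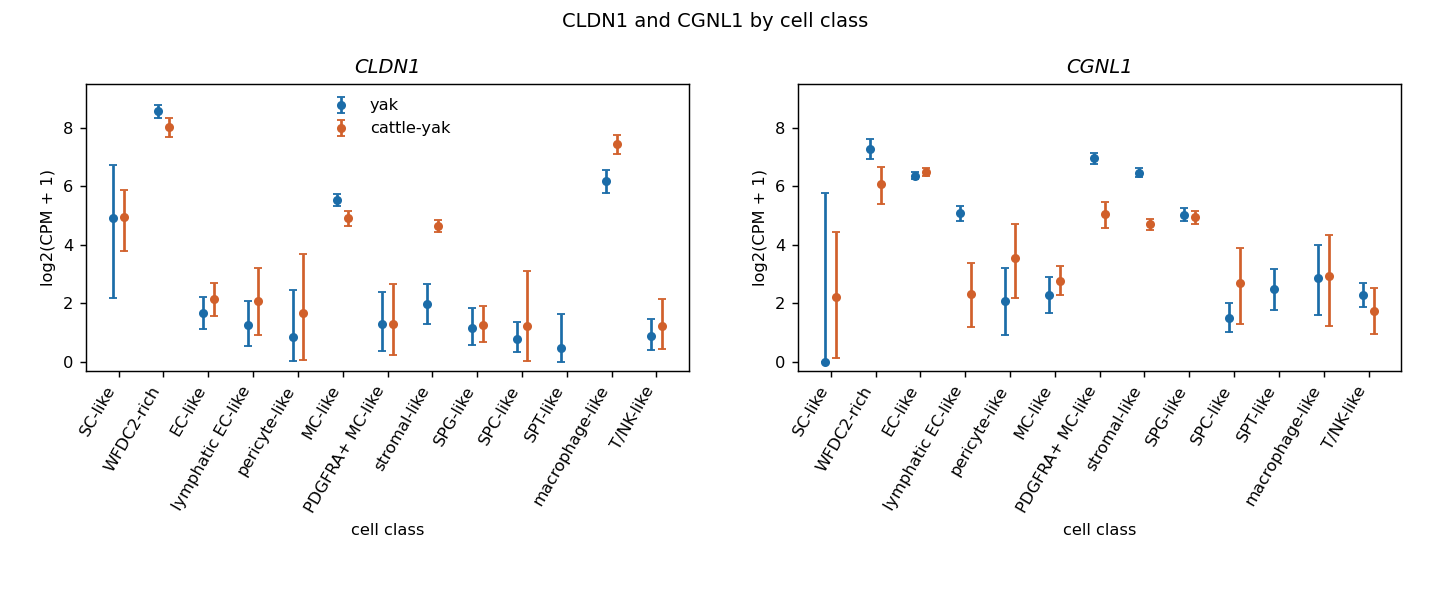
Points give the level, as log2(CPM + 1), of *CLDN1* (left) and *CGNL1* (right) in each cell class, with bars for 95% Poisson intervals, in the yak (blue) and cattle-yak (orange) library. *CLDN1* is highest in *WFDC2*-rich cells, then in macrophage-like cells, and the stromal-like pair of points lies far apart.

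In germ cells, spermatogonia-like (SPG-like) cells were highest in *GJC1*. They held 163 CPM (153 to 174) in the yak and 134 CPM (125 to 144) in the cattle-yak library, and spermatocyte-like (SPC-like) cells held 31.4 CPM (27.7 to 35.5) and 61.3 CPM (44.7 to 82.0). In yak SPT-like cells the level was 6.54 CPM (3.81 to 10.5), near the 5.05 CPM of T/NK-like cells. After thinning, 15.2% (12.1 to 18.7) of 488 and 11.1% (7.51 to 15.7) of 252 SPG-like cells held a *GJC1* UMI, 173 and 14 shallower cells being left out, against 0.171% and 0.439% of T/NK-like cells. Unthinned shares were 40.8% and 79.3%, at median depths of 1980 and 22464 UMIs. *TJP1* was at 231 CPM (219 to 244) and 199 CPM (187 to 211) in SPG-like cells, at 92.9 CPM (86.4 to 99.7) and 188 CPM (158 to 222) in SPC-like cells, and at 37.3 CPM (30.3 to 45.5) in yak SPT-like cells. It was not particular to germ cells. *TJP1* led in lymphatic EC-like cells of the yak (247 CPM) and EC-like cells of the cattle-yak library (216 CPM), neither past 2-fold over SPG-like cells. Yak EC-like and stromal-like cells were at 228 and 226 CPM. *GJC1* and *TJP1* were therefore lower in each later germ class of the yak library, each class taken as a whole. For *TJP1* the 2 SPT-like clusters differed. It was at 12.8 CPM (8.23 to 19.1) in the 81 cells led by *CSTL1* and 99.7 CPM (78.2 to 125) in the 511 led by *CCDC63*. The latter level was not below that of SPC-like cells. T/NK-like cells held 37.6 CPM of *TJP1*, near the SPT-like level.

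Other members were higher in late germ cells of the yak. *JAM3* was at 10.8 CPM (8.22 to 13.9) in SPG-like, 13.9 CPM (11.49 to 16.7) in SPC-like and 36.5 CPM (29.6 to 44.7) in SPT-like cells, against 0.84 CPM in T/NK-like cells. The 2 SPT-like clusters differed in depth, with a median of 989 UMIs in the 511 cells led by *CCDC63* and 23437 UMIs in the 81 cells led by *CSTL1*. In the deep cluster *JAM2* was at 137 CPM (121 to 155), *JAM3* at 42.3 CPM (33.5 to 52.7), *CLDN12* at 21.9 CPM (15.8 to 29.8) and *TJP3* at 23.0 CPM (16.7 to 31.0). The shallow cluster held 122 CPM (97.6 to 150) of *JAM2*, but also 201 CPM (170 to 236) of the vascular gene *GJA4*, where the deep cluster held 10.7 CPM (6.53 to 16.5) and T/NK-like cells 59.2 CPM. The part of free RNA in the shallow cluster was not tested. *JAM2* was therefore high, and *GJA4* low, in the deeper of the 2 clusters. *CLDN12*, a claudin that lacks the usual anchor sequence for zonula occludens proteins, had 41 of its 42 SPT-like UMIs in the deep cluster. *TJP3*, a zonula occludens gene of epithelia, had 43 of 45 there. These counts are not scaled to depth, and the deep cluster held more UMIs in all. The levels in the shallow cluster were 1.37 CPM (0.03 to 7.61) for *CLDN12* and 2.73 CPM (0.33 to 9.87) for *TJP3*. T/NK-like cells held 5.53 CPM (4.05 to 7.38) of *TJP3*.

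*MARVELD3*, a tetraspan protein of tight junctions, was found in germ cells. Of its 54 yak UMIs, 39 were in SPC-like and 12 in SPG-like cells, and of its 20 cattle-yak UMIs 5 and 13. Among yak germ cell clusters its level was highest in the SPC-like cluster led by *RAD51AP2*, at 12.3 CPM (8.23 to 17.6), against 1.72 CPM (0.82 to 3.16) in the one led by *HOXA11*, and in a cattle-yak SPC-like cluster of 16 cells it was 13.5 CPM (3.68 to 34.6) on 4 UMIs.

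**Figure D4:**
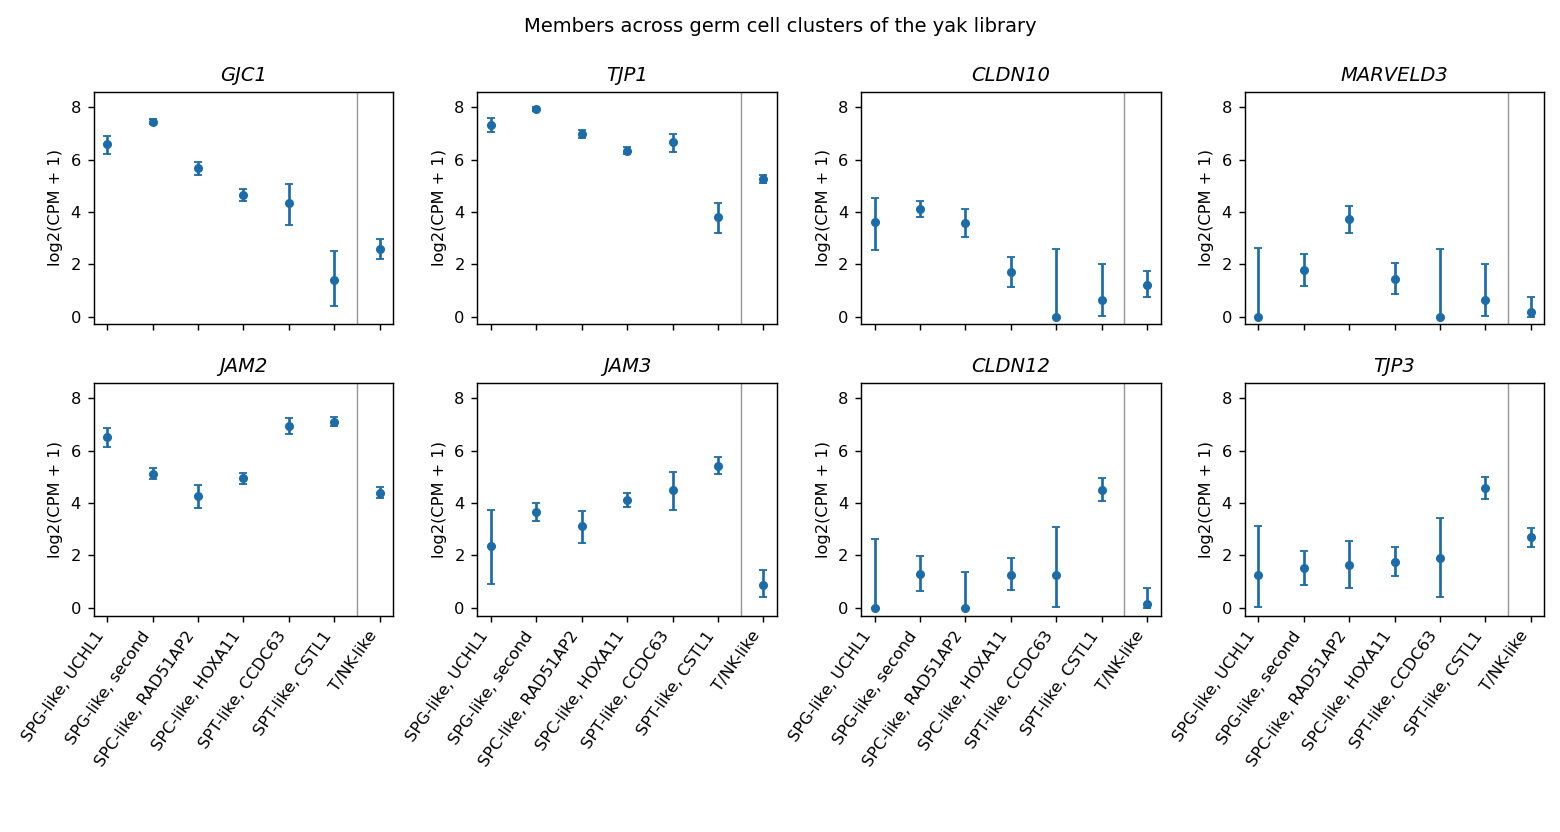
Points give the level, as log2(CPM + 1), of 8 members in the 6 germ cell clusters of the yak library, each named by its class and a leading gene (the second SPG-like cluster by its order), and in T/NK-like cells right of the line, with bars for 95% Poisson intervals. *GJC1* and *TJP1* are lower, and *JAM3*, *CLDN12* and *TJP3* higher, in the SPT-like cluster led by *CSTL1* than in the SPG-like clusters.

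Part of the yak barcodes have a published germ cell type, which allowed a second view. *GJC1* was at 32.7 CPM (10.6 to 76.2) in cells typed SSC, at 115 CPM (89.6 to 145) in cells typed SPG, at 59.7 CPM (34.8 to 95.6) in Early-SPC, at 42.0 CPM (25.6 to 64.9) in Late-SPC and at 14.7 CPM (4.01 to 37.7) in SPT. *JAM2* was at 151 CPM (108 to 205) and *JAM3* at 33.1 CPM (15.2 to 62.9) in cells typed SPT, against 14.05 CPM (3.83 to 36.0) and 0 UMIs in Early-SPC. *JAM2* was at 37.8 CPM (22.4 to 59.7) in Late-SPC, at 58.2 CPM (40.7 to 80.5) in SPG and at 111 CPM (64.7 to 178) in SSC, whose interval overlaps that of SPT. The cells typed SPT also held 121 CPM (83.6 to 171) of *GJA4*, and the part of free RNA there was not tested.

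The 84 cells typed SSC, spermatogonial stem cells, held vascular members. *GJA5* and *CLDN5* had 11 UMIs each, or 71.9 CPM (35.9 to 129), while cells typed SPG held no *GJA5* UMI and 14.5 CPM (6.65 to 27.6) of *CLDN5*. Of the 84 cells, 62 fell into SPG-like, 11 into EC-like and 11 into unnamed clusters. Without the 11 EC-like ones, *GJA5* was at 81.1 CPM (40.5 to 145), in 8 of 73 cells, and *CLDN5* at 59.0 CPM (25.5 to 116), in 7. *PECAM1*, a pan-endothelial gene, was at 1173 CPM (998 to 1370) in these 73 cells, in 59 of them, against 160.0 CPM (130.03 to 195) in cells typed SPG and 2126 CPM (2057 to 2197) in the *BMX* cluster. *UCHL1*, a spermatogonial gene, was at 310 CPM (223 to 419), 1028 CPM (949 to 1111) and 20.2 CPM (13.97 to 28.2) in the same groups. The part of endothelial RNA in the members' levels in SSC cells was not tested.

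Between the libraries, the well-measured members of EC-like and pericyte-like cells were within 2-fold, as were most of all genes tested there. Of 7 members with at least 100 summed counts in EC-like cells none was at least 2-fold apart, where 4.52% of all genes were, and of 3 in pericyte-like cells none, where 6.74% were. *CLDN15*, with fewer counts, had a log2 ratio of cattle-yak to yak of 1.04 (0.21 to 1.88) in EC-like cells and 1.51 (0.42 to 2.69) in the *BMX* clusters. *GJA4* came nearest in EC-like cells, at 336 CPM (322 to 350) in the yak and 585 CPM (563 to 607) in the cattle-yak library, a log2 ratio of 0.80 (0.72 to 0.88), which became 1.10 without the highest doublet scores. The same ratio was 0.95 (0.86 to 1.05) in the *BMX* clusters and 0.27 (0.10 to 0.45) in the other EC-like cells. In lymphatic EC-like and pericyte-like cells *GJA4* was lower in the cattle-yak library, with log2 ratios of -0.86 (-1.04 to -0.68) and -0.63 (-0.80 to -0.46). In T/NK-like cells, which should lack the gene, the ratio was -0.93 (-1.26 to -0.60), at 59.2 and 31.2 CPM, and the part of free RNA in these differences was not tested. Over all genes tested, the median ratio was -0.06, -0.36 and -0.16 in EC-like, lymphatic EC-like and pericyte-like cells.

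In lymphatic EC-like cells 2 of 7 members passed, where 9.07% of all genes did. *CGNL1* was at 32.6 CPM (26.9 to 39.1) against 4.00 CPM (1.30 to 9.33), so that its log2 ratio was -3.03 (-4.68 to -1.76). *CLDN5* was at 91.7 CPM (82.0 to 102) against 36.8 CPM (26.9 to 49.0), a ratio of -1.32 (-1.80 to -0.87). The *CLDN5* ratio was -0.95 with a mitochondrial limit of 20% and -0.96 without mitochondrial and rRNA features, both within 2-fold. Endothelial markers were also lower in the cattle-yak class, *PECAM1* at 1174 against 357 CPM, *VWF* at 31.8 against 4.80 CPM and *PROX1* at 226 against 131 CPM. *GJA1* was higher there, with a log2 ratio of 0.42 (0.14 to 0.70). The part of class make-up in the lymphatic differences was not tested. *CGNL1* was the 1 of 4 members that passed in *PDGFRA*-positive MC-like cells, where 6.19% of all genes did, with a log2 ratio of -1.95 (-2.45 to -1.48). It also passed in stromal-like cells, at 87.0 CPM (77.8 to 97.0) against 24.9 CPM (21.5 to 28.7), a ratio of -1.80 (-2.07 to -1.54). In the cattle-yak stromal-like cluster with the leading gene of the yak one *CGNL1* was at 49.1 CPM (37.0 to 63.8), which is less than 2-fold below the yak level. In EC-like and SPG-like cells the ratio of *CGNL1* was 0.14 (-0.05 to 0.32) and -0.09 (-0.41 to 0.22), so its level was lower in the cattle-yak library in some classes and not in others.

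*CLDN1* was the second of 6 members that passed in stromal-like cells, where 7.90% of all genes did. It was at 2.95 CPM (1.47 to 5.29) in 882 yak and 24.0 CPM (20.6 to 27.7) in 2861 cattle-yak cells, a log2 ratio of 3.02 (2.15 to 4.05), and its 181 cattle-yak UMIs lay in 155 cells. Different clusters made up this class, 1 in the yak and 5 in the cattle-yak library, and in the 5 the level of *CLDN1* ran from 14.3 to 33.4 CPM. In the cattle-yak cluster with the same leading gene as the yak one it was 18.7 CPM (11.6 to 28.6). The 14 cattle-yak UMIs each of *GJB5* and *GJC3* in stromal-like cells lay in 14 cells each.

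In MC-like cells 2 of 6 members passed, where 3.76% of all genes did. *CLDN10* had a log2 ratio of 2.18 (1.69 to 2.69) and *JAM2* one of -1.17 (-1.58 to -0.77), *JAM2* being at 39.6 CPM (33.6 to 46.5) and 17.6 CPM (13.9 to 22.0). The class was 1 cluster in the yak and 2 in the cattle-yak library, and both cattle-yak clusters, at 68.0 and 22.4 CPM, held more *CLDN10* than the yak one at 10.9 CPM. *JAM2* in T/NK-like cells was at 20.1 and 10.27 CPM, a ratio of -0.97 (-1.57 to -0.41), and the part of free RNA in its MC-like difference was not tested.

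In SPG-like cells 3 of 7 members passed, where 9.73% of all genes did. *JAM2* had a log2 ratio of -1.64 (-2.03 to -1.25), *CLDN10* of -1.43 (-2.06 to -0.84) and *GJA4* of -1.13 (-1.48 to -0.78). The yak class held a shallow cluster led by *UCHL1* and a deep one, the cattle-yak class only a deep one. In the deep yak cluster *JAM2* was at 34.0 CPM (29.0 to 39.6), *CLDN10* at 16.5 CPM (13.1 to 20.5) and *GJA4* at 22.5 CPM (18.4 to 27.1), against 13.3, 5.84 and 18.1 CPM (14.7 to 21.9) in the cattle-yak cluster. The interval of *GJA4* in the deep clusters overlapped between libraries, and those of *JAM2* (10.5 to 16.7 in the cattle-yak library) and *CLDN10* (4.02 to 8.21) did not. In T/NK-like cells *JAM2* and *GJA4* were lower in the cattle-yak library too, with log2 ratios of -0.97 and -0.93. The part of free RNA in their SPG-like differences was not tested. *GJC1* and *TJP1*, the members with the most UMIs in these cells, had log2 ratios of -0.29 (-0.43 to -0.14) and -0.22 (-0.34 to -0.10), beside a median of -0.17 over all genes. The *CLDN10* ratio was -0.77 with a mitochondrial limit of 20% and -0.92 with every cell weighted equally, both within 2-fold.

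SPC-like and macrophage-like cells, 64 and 102 in the cattle-yak library, were outside the 7 classes in which all genes were compared, so their values have no background. The SPC-like clusters had different leading genes in the 2 libraries. In SPC-like cells the log2 ratio was 1.11 (0.54 to 1.64) for *GJA4* and 1.02 (0.74 to 1.28) for *TJP1*, and -1.48 (-2.81 to -0.41) for *JAM2* and -1.77 (-4.07 to -0.19) for *JAM3*, on 7 and 3 cattle-yak UMIs. *CLDN1* in macrophage-like cells had a ratio of 1.29 (0.78 to 1.81), which was 0.81 at a clustering resolution of 2.

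**Figure D5:**
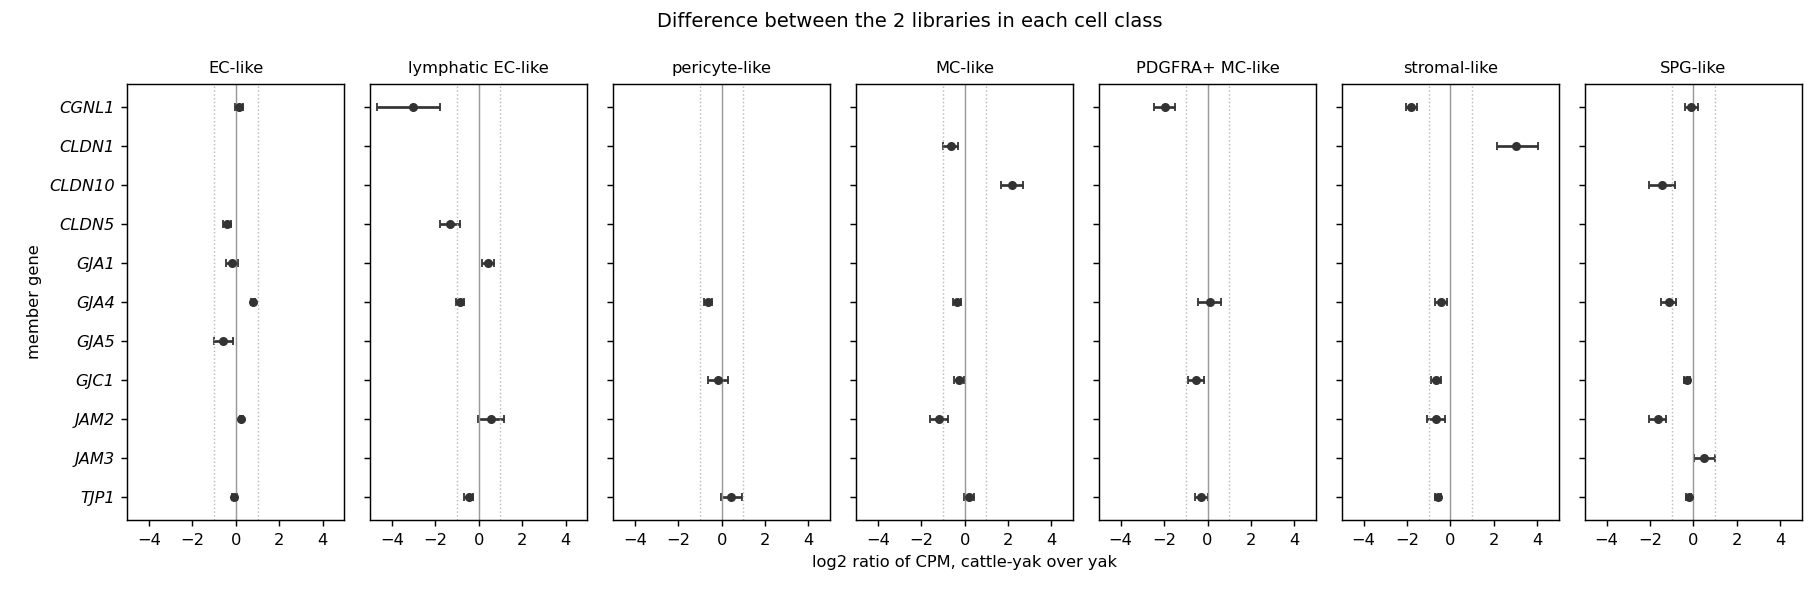
Points give the log2 ratio of CPM of the cattle-yak to the yak library for the described members with at least 100 summed counts in each of 7 cell classes, with bars for exact 95% intervals, a solid line at 0 and dotted lines at a 2-fold difference. *CGNL1* lies left of the dotted line in 3 classes, *CLDN10* right of it in MC-like and left of it in SPG-like cells, and *CLDN1* right of it in stromal-like cells.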

How the data were processed

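The authors deposited, for each library, raw counts of UMIs per gene and barcode, without normalization, as written by Cell Ranger. The matrix headers name version 5.0.0 and the submitters' processing notes version 2.1.1, and the build was BosGru3.0 per the paper's methods. The yak library held 11991 cells and 60816600 UMIs, the cattle-yak library 8930 cells and 43774841 UMIs.

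The members and lists were chosen with earlier results of these data known. Cells below a mitochondrial share of 30% were kept. The paper's limits on genes and UMIs (2 standard deviations) were an alternative, since they leave 25.2% of cattle-yak SPG-like cells. Each library was clustered on its own with scanpy 1.11.5 (Leiden, igraph 0.11.9, resolution 1, 2000 variable genes, 30 components, 15 neighbours), without members, mitochondrial features and a pair of rRNA features. The marker lists were written earlier than the naming rule, which was set after the clusters were seen: at least 3 markers and 20% of a list with a log2 ratio of at least 1 and a UMI in at least 10% of cells. *WFDC2*-rich clusters had at least 1000 CPM of that gene, and *PDGFRA*-positive ones at least 100. A cattle-yak cluster was divided at resolution 2 into its SC-like and *WFDC2*-rich cells. Scrublet called 0 yak and 278 cattle-yak cells as doublets, so the yak call did not work, and no cell was removed for it.

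Summed counts of a class were scaled to CPM with exact Poisson intervals, shares had exact (Clopper-Pearson) binomial intervals, and ratios between 2 sums exact conditional intervals. Ratios of a class to the other cells, and calls of a 2-fold difference, had 1 CPM added to both sides and needed 100 summed counts. A floor of 3 counts was used for a count of 0. Germ cell types of yak cells were taken from the barcode list in the supplement of the paper, and their values computed from the counts. No significance test was made, since each group has 1 library. The code for fold calls and ratio intervals was checked on simulated counts with known differences. Members with at least 50 UMIs in 1 class were described by class, with values where they led or had at least 50 CPM, and the others by totals; a few members are counted but not reported here by name. Further values, such as those of *MARVELD3*, *CLDN12*, *TJP3* and single clusters, were chosen after they were seen. From the other junction genes, the 2 with the largest ratio per class and at least 10 UMIs were named. Python 3.11.15, numpy 2.4.6, scipy 1.17.1 and pandas 2.3.3 were used.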

Additional observations from a re-analysis of the deposited data

Results flagged for a closer look

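For several members the log2 ratio of a class to the other cells of its library had opposite signs in the yak and cattle-yak libraries. The 4 flagged cases are given here, and these differences were not tested, since each group has 1 library. Cases not flagged include *CLDN1* in stromal-like cells (-1.32 and 0.96) and *CGNL1* in *PDGFRA*-positive MC-like cells (1.84 and -0.16). *JAM3* in SPC-like cells (1.04 and -0.49) is another. *CGNL1* in stromal-like cells had a ratio of 1.36 in the yak and -0.59 in the cattle-yak library. *GJC1* in stromal-like cells had 0.64 and -0.23. *CLDN10* in SPG-like cells had 2.43 and -0.50. *TJP1* in SPC-like cells had -0.72 and 0.31. No group was large enough for a search for outlying libraries.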

How the results depend on the processing

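No paired analysis was possible because each group has 1 library. Among alternatives, 77 values for the main comparisons kept their direction and moved little and 37 moved. Of the values for all other comparisons and counts, 363 kept, 109 moved and 4 reversed. Those 4 were *JAM2* in yak SPT-like cells, whose log2 ratio to the other cells of -0.13 became 0.21 with every cell weighted equally and 0.59 without the mixed clusters, and *CGNL1* in cattle-yak *WFDC2*-rich cells, whose 0.89 became -0.19 under the paper's limits and -0.27 with a mitochondrial limit of 20%. The cause was not tested for any change here.

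For *CLDN1* in *WFDC2*-rich cells, the yak ratio of 5.85 became 4.53 under the paper's limits, 6.18 with the 20% limit, 6.35 without the highest Scrublet scores and 4.20 with equal weights, and the cattle-yak ratio of 4.30 became 3.92, 3.70, 3.45 and 3.39 in the same order, and 3.90 with joint clustering. For *GJA4* in pericyte-like cells, the yak ratio of 2.29 became 2.56 under the paper's limits, 2.37 at resolution 0.5, 2.47 without mitochondrial and rRNA features, 2.90 with equal weights and 3.20 without the mixed clusters, and the cattle-yak ratio of 1.64 became 1.98 under the paper's limits, 2.33 with equal weights and 2.38 without the mixed clusters. For *CLDN5* in EC-like cells, the yak ratio of 2.13 became 2.42, 2.59 and 3.11 under these last 3 settings, and the cattle-yak ratio of 2.49 became 3.08, 3.37 and 4.12, with 2.098 at the 20% limit, 2.92 at resolution 0.5 and 2.92 without the highest Scrublet scores.

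The cattle-yak to yak ratio of *CLDN10* in MC-like cells, 2.18, became 2.99 at the 20% limit, and that of *CLDN1* in stromal-like cells, 3.02, ran from 2.77 to 3.34. With a fold of 4, 2 yak members in place of 7 and 2 cattle-yak members in place of 5 had a called leading class. These counts and the next ones have no share over all genes at the same setting, so they cannot be compared with all genes. In EC-like cells the count of members apart between libraries rose from 0 to 1 at resolution 0.5, without the highest Scrublet scores and with a fold of 1.5, and in MC-like cells it fell from 2 to 1 under the paper's limits, at resolution 0.5, with joint clustering, without the highest Scrublet scores and with a fold of 4. At the 20% limit no SC-like or pericyte-like cell was named, and under the paper's limits no cattle-yak SPG-like cell. The settings that left out mixed clusters, and those for counts and library ratios under other classes, were chosen after seeing the data. The 35 and 103 SC-like cells held at most 25 UMIs of any member described by class.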
